A study of Mus musculus with 6 samples.

Results

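Genes of innate nucleic acid sensing were followed in HK-2 cells, from the sensors of DNA and RNA through their adaptors to the kinase and transcription factors that switch on interferon genes. They are the DNA sensors CGAS and IFI16, the RNA sensors IFIH1, DHX58 and TLR3, the adaptors STING1 and MAVS, the kinase TBK1, and the interferon regulatory factors IRF3 and IRF7. These 10 genes were taken by symbol from the 39234 genes of the deposited table. The rule uses no measured value, but earlier results of these data were known when it was set. All 10 passed the filter on low counts and were tested.

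Cells read foreign or misplaced nucleic acid with receptors that sit in the cytosol, the nucleus or endosomes. DNA bound by cGAS or IFI16 leads to STING at the endoplasmic reticulum, long double-stranded RNA bound by MDA5 (the product of IFIH1) leads to MAVS on mitochondria, and TLR3 reads double-stranded RNA in endosomes through the adaptor TICAM1. These routes meet at TBK1, which phosphorylates IRF3 and IRF7, and the activated factors enter the nucleus and turn on interferon genes. Most of these steps are set by binding, phosphorylation and location of the proteins, which RNA levels do not show. Several of the genes, among them IFIH1, DHX58 and IRF7, are themselves induced by interferon, and proximal tubule cells are known to use these routes when DNA or RNA leaves its usual compartment in kidney injury.

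RNA was sequenced from 3 control libraries and 3 libraries with USAG-1 overexpression of HK-2, an immortalised epithelial line from human proximal tubule whose genotype the labels give as WT in every library. USAG-1, the product of SOSTDC1, is a secreted antagonist of bone morphogenetic protein and Wnt signalling. The methods describe overexpression by transient transfection of a plasmid, and neither the labels nor the methods say whether the sequenced control cells received an empty plasmid, so USAG-1 and the plasmid that carries it cannot be told apart here. The labels give no time of harvest and no further treatment. They list the species as mouse, but HK-2 is a human line and the gene identifiers are human. Nothing in the labels says that the numbered libraries came from separate cultures, so the p-values measure only the spread between these libraries, which may be technical.

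Between 41236194 and 48699471 reads per library were counted on genes, and 3 counts, the most that a count of 0 allows, corresponded to 0.0608 to 0.0719 CPM, a limit that covers counting error only. CPM is the count of a gene scaled to the size of its library, after TMM normalisation, which sets the typical gene equal between libraries. SOSTDC1 was counted 79, 80 and 60 times in control replicates 1 to 3 and 5072, 3907 and 4438 times with USAG-1 overexpression. Control replicate 3 stood apart: its counts differed from those of the other controls by a chi-square of 42.3 and 42.7 per degree of freedom, against 6.52 to 8.35 for the other pairs of libraries within a group. Mitochondrially encoded genes held 4.803% to 5.59% of the counts in the controls and at most 1.55% with USAG-1 overexpression, and with these genes left out IFI16, the member called below, had the same log2 fold change of 0.45. Of the tubule markers, PAX8 (374.9 ± 8.57 CPM) and GGT1 (104.5 ± 17.0 CPM; SD, n = 3 controls) were high, LRP2 was at 0 in every library, and the controls averaged 0.208 CPM of CUBN and 0.0319 CPM of HNF4A.

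A gene was called changed when edgeR's quasi-likelihood test gave an adjusted p under 0.05, at any fold change, with Benjamini-Hochberg adjustment over the 18188 genes tested. IFI16 rose and was the single member called. The other 9 members had adjusted p values of 0.0797 to 0.958, and 3 of the 10 members (IFI16, MAVS and STING1) had an unadjusted p under 0.05. Calls were made for 15.9% of all genes tested, 8.95% higher and 6.91% lower with USAG-1 overexpression, so 1 call among 10 genes is close to this background. In 5 of the 10 members the libraries of the 2 groups did not overlap (IFI16, TLR3, STING1 and IRF7 higher, MAVS lower), against 37.6% of all genes tested. Log2 fold changes were above 0 in 7 members and below 0 in 3, with a median of 0.22 against -0.02 over all genes tested.

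**Figure D1:**
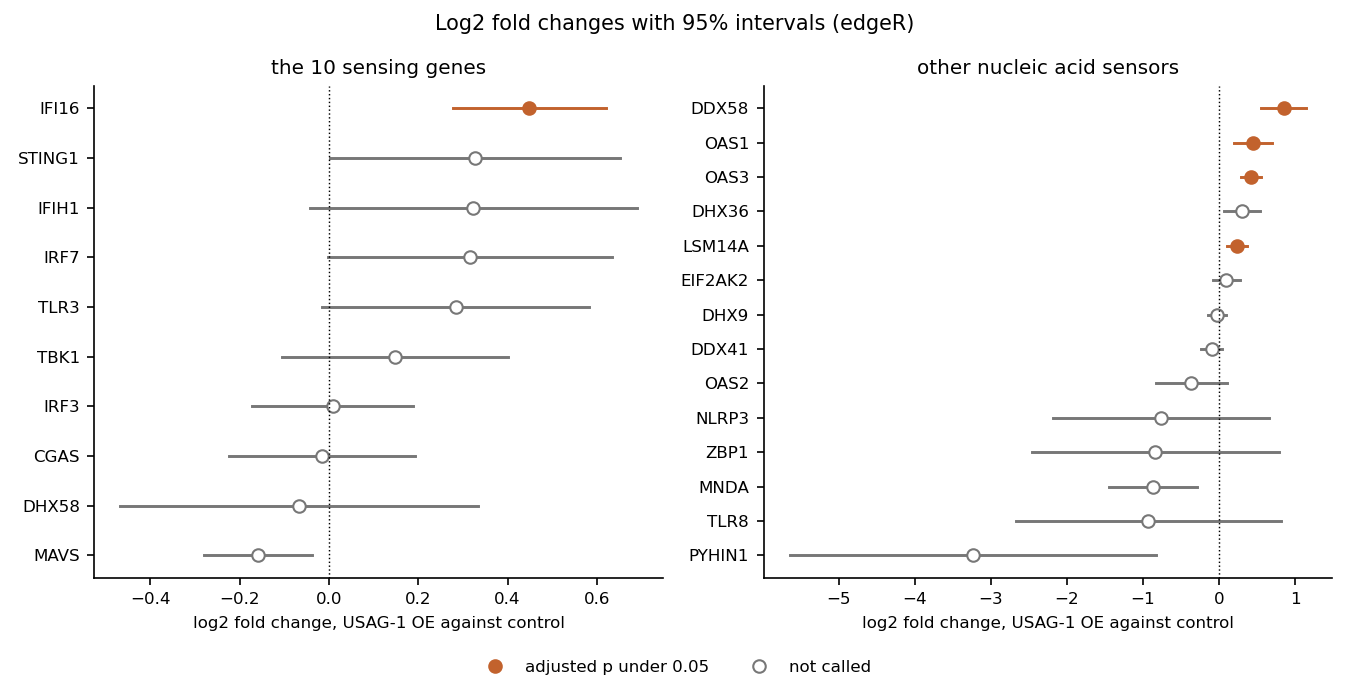
Log2 fold change of USAG-1 overexpression against control with its 95% interval from edgeR, for the 10 genes on the left and for the 14 tested genes of the list of other nucleic acid sensors on the right, each panel with its own axis; filled points are genes called. The interval of IFI16 runs from 0.28 to 0.62 and IFI16 is the single filled point on the left, and DDX58 at 0.85 leads the 4 filled points on the right.

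IFI16 (ENSG00000163565; hg38, chromosome 1, 158999968 to 159055155, plus strand) encodes a DNA sensor of the PYHIN family that is found in the nucleus and the cytosol. Its level was 115.6, 115.0 and 100.3 CPM in control replicates 1 to 3 and 154.0, 155.9 and 141.8 CPM in USAG-1 replicates 1 to 3. Every library with USAG-1 overexpression lay above every control. The means were 110.3 ± 8.67 and 150.6 ± 7.69 CPM (SD, n = 3 each), which is a rise of 36.5% or 0.45 on the log2 scale (SE 0.07), with an adjusted p of 0.00634 (edgeR). At this level each value rested on 4278 to 7071 counts. The call was made under all 17 other settings tried, with log2 fold changes of 0.39 to 0.49 when a library was left out and a highest adjusted p of 0.0422, although these settings called from 5.98% (without USAG-1 replicate 2) to 27% (without control replicate 3) of all genes and 6.26% with no filter on low counts. PYDC5, which overlaps IFI16 on the other strand by 2781 bases, had 0 to 24 counts per library.

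CGAS (ENSG00000164430; chromosome 6, 73413515 to 73452297, minus strand) encodes the cytosolic enzyme that makes the messenger cGAMP when it binds DNA. Its level was 50.97, 42.78 and 53.79 CPM in the controls and 50.53, 48.43 and 47.01 CPM with USAG-1 overexpression. All 3 libraries with overexpression fell within the range of the controls. The means of 49.2 ± 5.72 and 48.7 ± 1.77 CPM (SD, n = 3 each) gave a log2 fold change of -0.01 with a 95% interval of -0.22 to 0.19, and the adjusted p was 0.934 (edgeR). The upper end of this interval lies below the lower end of the interval of IFI16. A difference between both genes was tested only as a ratio of counts within libraries, given further on.

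**Figure D2:**
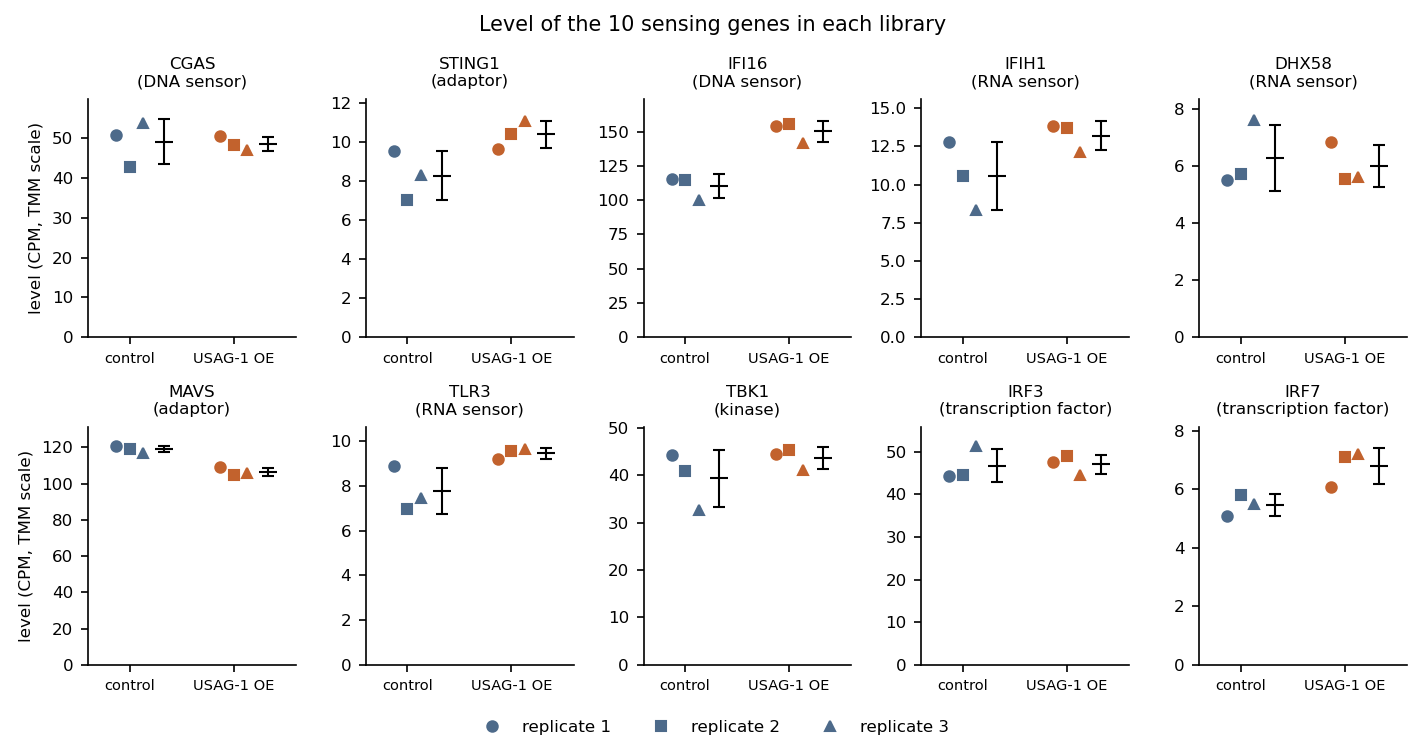
Level in CPM of each of the 10 genes in each library, with 1 panel and its own axis from 0 per gene, point shapes for the replicate number, blue for control and orange for USAG-1 overexpression (OE), and bars for the mean ± SD of 3 libraries. IFI16 lies at 100.3 to 115.6 CPM in the controls and 141.8 to 155.9 CPM with overexpression, whereas the CGAS points of the overexpressing libraries lie within the range of the controls.

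The 3 RNA sensors had adjusted p values above the threshold. IFIH1 (ENSG00000115267; chromosome 2, 162267074 to 162318684, minus strand), the MDA5 gene, stood at 12.79, 10.58 and 8.32 CPM in the controls and at 13.83, 13.69 and 12.12 CPM with USAG-1 overexpression. Control replicate 1 reached into the range of the overexpressing libraries and control replicate 3 lay lowest of all 6. Its log2 fold change was 0.32 (95% interval -0.04 to 0.69; adjusted p = 0.216, edgeR), and it was 0.18 without control replicate 3 and 0.48 without control replicate 1.

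DHX58 (ENSG00000108771; chromosome 17, 42101404 to 42112714, minus strand) encodes LGP2, a relative of MDA5 that binds RNA but lacks the domains that reach MAVS. It measured 5.51, 5.71 and 7.60 CPM in the controls against 6.84, 5.52 and 5.61 CPM with overexpression. The groups overlapped, and control replicate 3 was the highest of the 6 libraries. The log2 fold change was -0.07 (95% interval -0.47 to 0.33; adjusted p = 0.837, edgeR) and turned to 0.10 without control replicate 3.

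TLR3 (ENSG00000164342; chromosome 4, 186068911 to 186088044, plus strand), the endosomal sensor, measured 8.91, 6.95 and 7.48 CPM in the controls and 9.19, 9.55 and 9.66 CPM with USAG-1 overexpression. The overexpressing libraries were all above the controls, the nearest pair by a narrow margin. With means of 7.78 ± 1.01 and 9.47 ± 0.246 CPM (SD, n = 3 each), the log2 fold change was 0.28 (95% interval -0.01 to 0.58; adjusted p = 0.184, edgeR), which did not pass the threshold.

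Of the adaptors, STING1 (ENSG00000184584; chromosome 5, 139475533 to 139482758, minus strand) encodes STING, which is activated by cGAMP. It stood at 9.53, 7.01 and 8.32 CPM in the controls and at 9.67, 10.42 and 11.10 CPM with overexpression. No control reached the lowest overexpressing library. The log2 fold change was 0.33 (95% interval 0.00 to 0.65), with an unadjusted p of 0.0481 and an adjusted p of 0.160 (edgeR).

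MAVS (ENSG00000088888; chromosome 20, 3846799 to 3876123, plus strand) encodes the mitochondrial adaptor of MDA5 and RIG-I, and was the member with the steadiest level. It measured 120.7, 119.3 and 117.1 CPM in the controls and 109.1, 105.0 and 105.7 CPM with USAG-1 overexpression. All 3 overexpressing libraries lay below all 3 controls. The means of 119.1 ± 1.83 and 106.6 ± 2.20 CPM (SD, n = 3 each) differed by -10.4%, or -0.16 on the log2 scale (95% interval -0.28 to -0.04), with an adjusted p of 0.0797 (edgeR) that missed the threshold. MAVS was called lower by DESeq2 (adjusted p = 0.0292), which called 20.7% of all genes, and by edgeR without control replicate 3 (log2 fold change -0.16, adjusted p = 0.0139), where 27% of all genes were called.

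TBK1 (ENSG00000183735; chromosome 12, 64452090 to 64502114, plus strand), the kinase on which the routes converge, measured 44.34, 40.97 and 32.74 CPM in the controls and 44.43, 45.32 and 41.04 CPM with overexpression. The groups overlapped, and the lowest value was that of control replicate 3. Its log2 fold change of 0.15 (95% interval -0.11 to 0.40; adjusted p = 0.416, edgeR) came to 0.04 without that library.

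IRF3 (ENSG00000126456; chromosome 19, 49659569 to 49665875, minus strand), the factor that is present before infection and is switched on by phosphorylation, measured 44.43, 44.58 and 51.36 CPM in the controls and 47.72, 48.98 and 44.47 CPM with overexpression. Values of both groups were interleaved. The log2 fold change was 0.01 with a 95% interval of -0.17 to 0.19 (adjusted p = 0.958, edgeR). IRF3 overlaps BCL2L12 on the other strand by 734 bases, and since the strand setting of the counting is not given in the sources used here, reads there may have gone to either gene.

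IRF7 (ENSG00000185507; chromosome 11, 612553 to 615983, minus strand), the inducible partner of IRF3, measured 5.08, 5.82 and 5.51 CPM in the controls and 6.10, 7.12 and 7.21 CPM with USAG-1 overexpression. Its overexpressing libraries were all above the controls. The means were 5.47 ± 0.371 and 6.81 ± 0.617 CPM (SD, n = 3 each), and the log2 fold change of 0.32 (95% interval -0.00 to 0.63) did not pass the threshold (adjusted p = 0.166, edgeR). These values rested on 212 to 311 counts.

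How far the members varied within a group differed widely. Across the 3 controls the coefficient of variation (CV, the SD as a percent of the mean) was 21.1% for IFIH1, where counting error alone would give 4.69%. For MAVS it was 1.54% against 1.38% from counting, and for IRF7 6.78% against 6.44%. MAVS and IRF7 were thus about as steady among the controls as their counts allow. IFIH1, DHX58 (18.3% against 6.05%) and TBK1 (15.2% against 2.42%) were not. IFI16, the member called, also varied beyond counting error (7.86% against 1.43%), as did CGAS (11.6% against 2.14%) and IRF3 (8.45% against 2.20%). The same held for STING1 and TLR3. With USAG-1 overexpression the CV ran from 2.06% for MAVS to 12.3% for DHX58.

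Control replicate 3 was set against the other controls for each member. Relative to the mean of the other controls, its log2 level was -0.48 for IFIH1, -0.38 for TBK1 and -0.20 for IFI16, and 0.43 for DHX58, 0.21 for IRF3 and 0.20 for CGAS. It was the lowest control in 4 members and the highest in 3. Over all genes tested the median of this difference was -0.00, with a 10th to 90th percentile range of -0.68 to 0.45. The levels in replicate 3 also moved with the genomic span of genes, the distance from start to end with introns. Its median log2 deviation from a gene's mean was 0.12 in the 4547 genes with the shortest span (median 2.60 kb) and -0.10 in the 4547 genes with the longest (median 124 kb), against 0.05 and 0.06 in the shortest and -0.01 and -0.01 in the longest for the other controls, and -0.07 to -0.01 and 0.02 to 0.07 with USAG-1 overexpression. IFI16, IFIH1 and TBK1 have the longest spans of the members, 55.2, 51.6 and 50.0 kb. CGAS, next at 38.8 kb, was higher in control replicate 3 than in the other controls (0.20). Of the members with short spans, DHX58 (11.3 kb) and IRF3 (6.31 kb) were also higher there, by 0.43 and 0.21. STING1 (7.23 kb) and IRF7 (3.43 kb) differed by 0.03 and 0.02. In the 4547 genes with a median span of 39.4 kb, the median log2 deviation of control replicate 3 was -0.02. With an offset for span, added after the data were seen, IFI16 was called with a log2 fold change of 0.41.

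**Figure D3:**
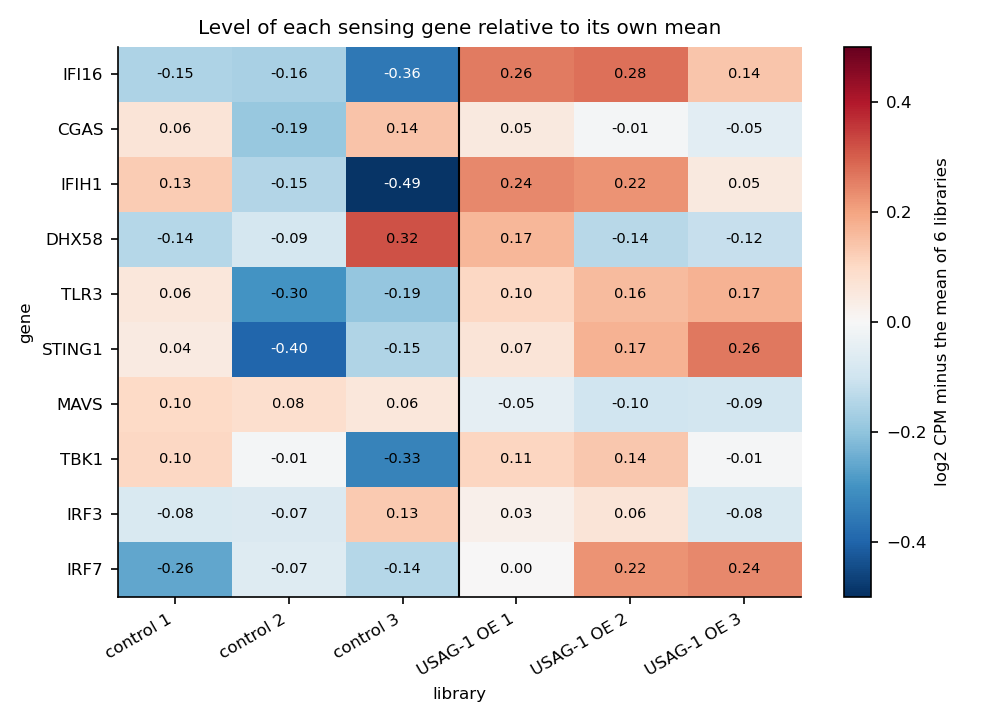
Log2 CPM of each of the 10 genes in each library after subtraction of the gene's mean over the 6 libraries, printed in each cell and coloured from blue (below the mean) to red (above it). Control replicate 3 is the lowest control for IFIH1, TBK1, IFI16 and MAVS and the highest for DHX58, IRF3 and CGAS.

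Ratios of counts within a library, which need no scaling, set pairs of genes of nucleic acid sensing against each other. For this, 6 pairs, chosen with results of these data known, were compared by a two-sided exact permutation test, whose smallest possible p with 3 against 3 libraries is 0.1, so none could pass the threshold. The ratio of IFI16 to CGAS counts was 2.27, 2.69 and 1.86 in the controls and 3.05, 3.22 and 3.02 with USAG-1 overexpression. Both groups were apart, and the log2 ratio differed by 0.46 (exact p = 0.1, adjusted 0.15 over the 6 pairs). STING1 to MAVS counts gave 0.0790, 0.0588 and 0.0711 in the controls and 0.0886, 0.0992 and 0.105 with overexpression, again without overlap (log2 difference 0.49, exact p = 0.1, adjusted 0.15). IRF7 to IRF3 counts overlapped between groups, at 0.107 to 0.130 and 0.128 to 0.162 (log2 difference 0.30, exact p = 0.2, adjusted 0.24).

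RIG-I, another RNA sensor, is the nearest relative of MDA5 and LGP2 and is listed in the table under its older symbol DDX58. DDX58 measured 18.8, 15.0 and 13.4 CPM in the controls and 30.5, 28.4 and 26.2 CPM with USAG-1 overexpression. The groups were far apart, and DDX58 rose with a log2 fold change of 0.85 (SE 0.13; adjusted p = 0.00457, edgeR), called under all 17 other settings. Within libraries, DDX58 had 1.47, 1.42 and 1.61 counts per count of IFIH1 in the controls and 2.20, 2.07 and 2.16 with overexpression (log2 difference 0.52, exact p = 0.1, adjusted 0.15). Against DHX58 the ratios were 3.41, 2.63 and 1.77 in the controls and 4.46, 5.14 and 4.68 with overexpression (log2 difference 0.92, exact p = 0.1, adjusted 0.15). IFIH1 to DHX58 counts overlapped between groups (log2 difference 0.40, exact p = 0.3, adjusted 0.3).

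The rest of the pathway was described by 9 lists with 143 genes, of which 138 are in the table and 126 were tested. The lists were chosen with earlier results of these data known, so their shares of calls are no independent evidence. Of the 126 genes, 18 rose and 13 fell, 24.6% of those tested against 15.9% of all genes. Their median log2 fold change was -0.02, the same as over all genes tested. These counts moved with single libraries: 31 rose and 20 fell without control replicate 3, whereas 9 and 9 did without control replicate 1, 11 and 7 without control replicate 2, and 9 and 7, 8 and 6, and 8 and 5 without USAG-1 replicates 1, 2 and 3. The share of all genes called was then 27% without control replicate 3, 10.2% and 8.74% without control replicates 1 and 2, and 6.92%, 5.98% and 7.09% without USAG-1 replicates 1, 2 and 3. Of the 31 genes called, 12 kept their call whichever library was left out, 7 of them higher and 5 lower.

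**Figure D4:**
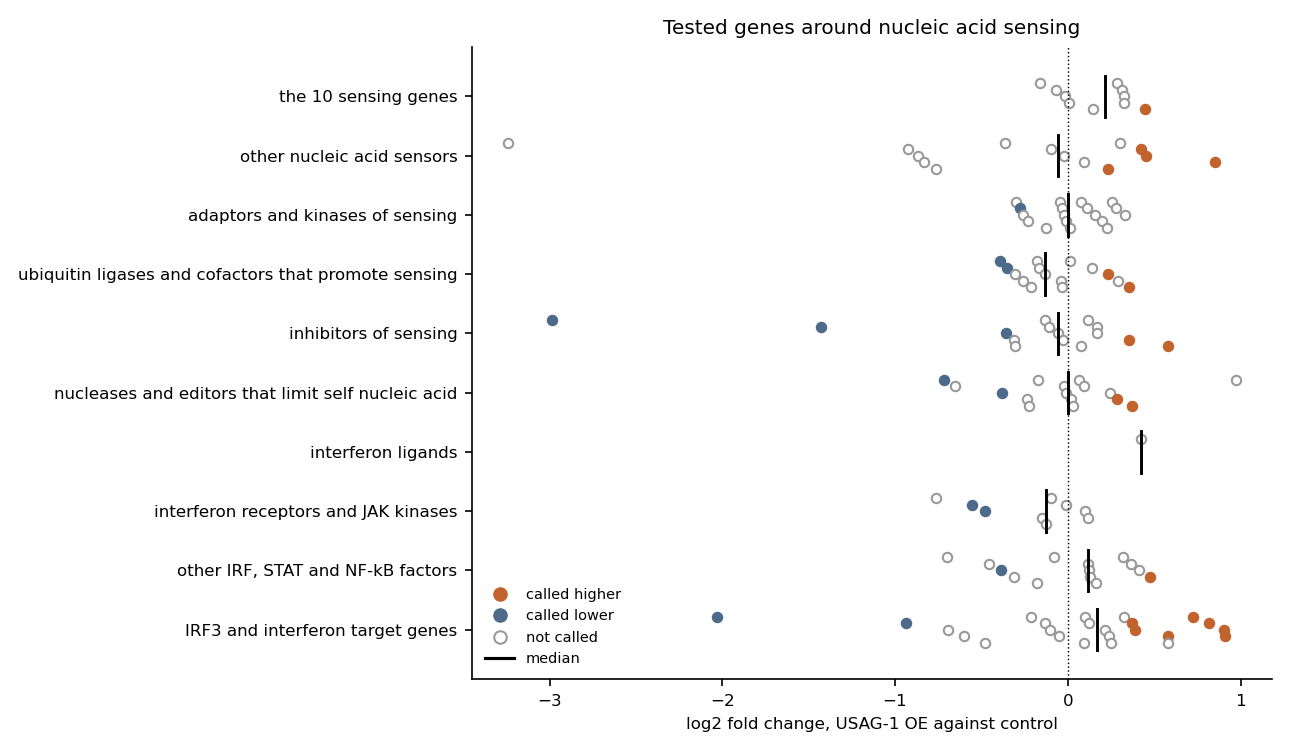
Log2 fold change of USAG-1 overexpression against control for each tested gene of the 10 genes and of the 9 pathway lists, with genes called higher in orange, called lower in blue, the others open, and a bar at the median of each list. NLRC3 at -2.99 lies lowest of the genes called, and the list of interferon ligands holds a single tested gene, IFNL4.

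Among 14 other sensors tested, 4 rose, with a list median of -0.06. OAS3, an enzyme that answers double-stranded RNA by making the activator of RNase L, went from 176.5, 171.3 and 172.7 CPM to 225.8, 243.8 and 227.6 CPM (log2 fold change 0.42, adjusted p = 0.00242, edgeR). DDX58 is given above. The other 2 that rose, named after their values were seen, were OAS1 (0.45) and LSM14A (0.23), and both lost the call when any library but control replicate 3 was left out (0.39 to 0.50 and 0.20 to 0.25). The PYHIN relatives of IFI16, also chosen after their values were seen, did not pass the test. MNDA averaged 4.12 CPM in the controls and 2.25 CPM with overexpression, a log2 fold change of -0.87 (adjusted p = 0.0526, edgeR), and was called lower by DESeq2 (adjusted p = 0.0141) and with at least 10 counts required in every library (adjusted p = 0.0425). PYHIN1 had 23, 35 and 12 counts in the controls and 7, 0 and 0 with overexpression (adjusted p = 0.0734, edgeR), and was called lower without control replicate 3 (adjusted p = 0.0440), without USAG-1 replicate 1 (adjusted p = 0.0312) and by limma-voom (adjusted p = 0.0257). AIM2 had 0 to 7 counts and was not tested.

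Of 18 adaptors and kinases, 1 was called, with a median log2 fold change of 0.00. MYD88, the adaptor of most Toll-like receptors other than TLR3, fell by 0.27 on the log2 scale (32.2 to 26.7 CPM; adjusted p = 0.0456, edgeR), and this call was lost when any library but control replicate 3 was left out (-0.32 to -0.24). TRAF2 followed at -0.23 (adjusted p = 0.0582) and was called without control replicate 3 (-0.16), by DESeq2 (-0.23), with at least 10 counts in every library (-0.24) and with library sizes alone (-0.21). TICAM1, the adaptor of TLR3, and IKBKE, the close relative of TBK1, named after their values were seen, had log2 fold changes of 0.22 and -0.01 (adjusted p = 0.141 and 0.978, edgeR).

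In the list of 15 cofactors that promote sensing, 2 rose and 2 fell. TRIM65, the ubiquitin ligase of MDA5, fell by 0.39 (adjusted p = 0.0317, edgeR), a call lost without any of the USAG-1 libraries or without control replicate 2 (-0.44 to -0.35). ZC3HAV1 (0.23) and IFIT5 (-0.35), named after their values were seen, lost their calls when any library but control replicate 3 was left out (0.21 to 0.26 and -0.42 to -0.31).

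Of 15 inhibitors of sensing, 2 rose and 3 fell. NLRC3, an inhibitor of STING signalling known for its high level in T cells, fell from 1.96, 2.55 and 3.42 CPM to 0.283, 0.481 and 0.232 CPM (log2 fold change -2.99, adjusted p = 0.00179, edgeR). TNFAIP3, the ubiquitin-editing enzyme A20, rose by 0.35 (adjusted p = 0.0108), a call lost without USAG-1 replicate 1 or 3 (0.31 and 0.36). Named after their values were seen, CYLD (-0.36) lost its call without USAG-1 replicate 2 or 3 (-0.31 and -0.36), RNF125 (-1.43) without any USAG-1 library or control replicate 2 (-1.53 to -1.25), and USP18 (0.58) without any library but control replicate 3 (0.51 to 0.64).

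Nucleases and editors that clear the cell's own nucleic acid showed 2 genes that rose and 2 that fell among 16. RNASEH2C, a subunit of RNase H2, which removes ribonucleotides from DNA, fell from 21.4, 19.6 and 26.1 CPM to 13.5, 13.2 and 14.1 CPM (log2 fold change -0.72, adjusted p = 0.00572, edgeR). Its partner subunits, named after their values were seen, measured -0.38 for RNASEH2B (adjusted p = 0.0444, lost when any library but control replicate 3 was left out, -0.43 to -0.32) and -0.17 for RNASEH2A (adjusted p = 0.388). SKIV2L, a helicase that feeds RNA to the exosome, rose by 0.29 (adjusted p = 0.0195, edgeR) and lost the call without USAG-1 replicate 2 or 3 or control replicate 1 or 2 (0.26 to 0.30). The other gene that rose, XRN1 (0.37), named after its values were seen, lost its call when any library but control replicate 3 was left out (0.28 to 0.43).

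Of 11 interferon ligand genes listed as products of the route, 6 are in the table, and these were at or near the limit of detection. IFNA1, IFNA2, IFNW1, IFNL1 and IFNL2 are not in the table, so nothing is known of their levels here. IFNB1, the gene that IRF3 and IRF7 are best known to drive, had 0 counts in all 6 libraries, which allows up to 0.0608 to 0.0719 CPM per library. IFNL4 was the single ligand tested, with 12, 17 and 0 counts in the controls and 13, 11 and 14 with overexpression (log2 fold change 0.43, adjusted p = 0.796, edgeR), and its direction turned without control replicate 3 (-0.14). IFNE, IFNK, IFNL3 and IFNG had 0 counts in every library with USAG-1 overexpression and at most 13 in a control. For the ligands in the table, a difference in RNA was not detectable at this depth.

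On the receiving side, 2 of 9 receptor and JAK genes were called, and both fell. IFNAR2, a chain of the type I interferon receptor, fell from 56.3, 57.1 and 61.5 CPM to 43.5, 37.6 and 44.3 CPM (log2 fold change -0.48, adjusted p = 0.00633, edgeR). IFNGR2, a chain of the interferon gamma receptor, fell by 0.56 (adjusted p = 0.0106, edgeR), a call lost without USAG-1 replicate 1 or 3 (-0.53 and -0.49). The partner chains IFNAR1 and IFNGR1, named after their values were seen, measured 0.10 and 0.12 (adjusted p = 0.347 and 0.406).

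Of 14 other IRF, STAT and NF-kB factors, 2 were called. NFKB1, a subunit gene of NF-kB, fell from 104.9, 112.1 and 114.9 CPM to 87.3, 84.9 and 81.6 CPM (-0.39, adjusted p = 0.00526, edgeR). STAT2 and IRF9, which act together on interferon target genes and were named after their values were seen, measured log2 fold changes of 0.32 and 0.41 and were not called (adjusted p = 0.118 for each).

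Of 24 target genes of IRF3 and interferon, 7 rose and 2 fell, 37.5% of those tested against the background of 15.9%, with a list median of 0.17. As this list was also chosen with earlier results of these data known, its share is a description and not a test. IFI44 went from 21.1, 22.0 and 19.0 CPM to 40.7, 38.4 and 37.0 CPM, a log2 fold change of 0.90 (adjusted p = 0.000567, edgeR). IFIT3, a partner of IFIT1 in binding foreign RNA, went from 57.1, 57.3 and 55.3 CPM to 81.9, 85.0 and 87.2 CPM (0.58, adjusted p = 0.000807). Chosen after their values were seen, IFIT1 (0.91) and OASL (0.72) also rose and CCL5 fell (-2.03), and all of these calls held whichever library was left out. The remaining calls, of IFIT2 (0.37), RSAD2 (0.82), HERC5 (0.39) and MX1 (-0.93), were lost without any USAG-1 library or without control replicate 1 (0.34 to 0.43, 0.61 to 0.94, 0.36 to 0.40 and -1.12 to -0.77), and those of IFIT2, RSAD2 and MX1 also without control replicate 2. ISG15 (0.22) and IFI6 (-0.05), named after their values were seen, were not called.

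Markers of T and NK cells moved with the groups beside these genes. Of 20 such markers 18 fell, and their summed level was 116.5 to 140.0 CPM in the controls and 15.7 to 18.9 CPM with USAG-1 overexpression. GNLY fell from 24.9 ± 3.58 to 1.23 ± 0.709 CPM and PTPRC from 13.6 ± 4.66 to 4.38 ± 1.25 CPM (SD, n = 3 each). The median log2 fold change of this list was -3.29. Any gene that fell shares this direction and any gene that rose does not, so direction alone links no gene to the markers. Of the pathway genes called lower, NLRC3 (-2.99), CCL5 (-2.03) and RNF125 (-1.43) fell most. The others ran from -0.93 (MX1) to -0.27 (MYD88). PYHIN1, which was not called, measured -3.24. The labels name HK-2, an epithelial line, for every library, and no T or NK cells. Where the RNA of these markers came from, and its part in the results, was not tested. In bulk RNA, fewer cells of a type and less RNA per cell cannot be told apart. Summed B cell and plasmacytoid dendritic cell markers were 6.96 to 9.08 CPM in the controls and 5.05 to 8.92 CPM with overexpression, where CLEC4C and LILRA4 were at 0. Myeloid markers summed to 67.3 to 126 and 51.9 to 89.97 CPM, with 2 of 12 lower. Platelet and erythroid markers, led by HBB, summed to 8.19 to 111 and 8.84 to 77.9 CPM. Proximal tubule markers summed to 470 to 500 and 596 to 618 CPM with 2 of 5 tested higher, and epithelial markers to 1446 to 1887 and 1669 to 1767 CPM with 1 of 6 tested lower. Fibroblast and endothelial markers, led by LUM, summed to 43.4 to 46.9 and 59.0 to 60.5 CPM with 1 of 4 tested higher.

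The genes whose profile over the 6 libraries was most like that of IFI16 were sought by the root mean square difference of log2 CPM centred on each gene's mean, over 11100 genes. CPEB1, a regulator of messenger RNA polyadenylation, was nearest at 0.0223, followed by SEC63, a part of the import channel of the endoplasmic reticulum, at 0.0237, and GARRE1 at 0.0257, where the median gene was at 0.257. SEC63 rose from 111.8 ± 8.98 to 149.6 ± 5.15 CPM (SD, n = 3 each; log2 fold change 0.42, adjusted p = 0.00717, edgeR). CPEB1 and GARRE1 rose by log2 fold changes of 0.45 and 0.43, and both lost the call without USAG-1 replicate 1 (0.45 and 0.41) or replicate 2 (0.42 and 0.41). Likeness in 6 libraries includes the difference between the groups, so rises close to that of IFI16 follow from how these genes were chosen. Their p-values are no independent evidence, and likeness says nothing of a shared function.

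**Figure D5:**
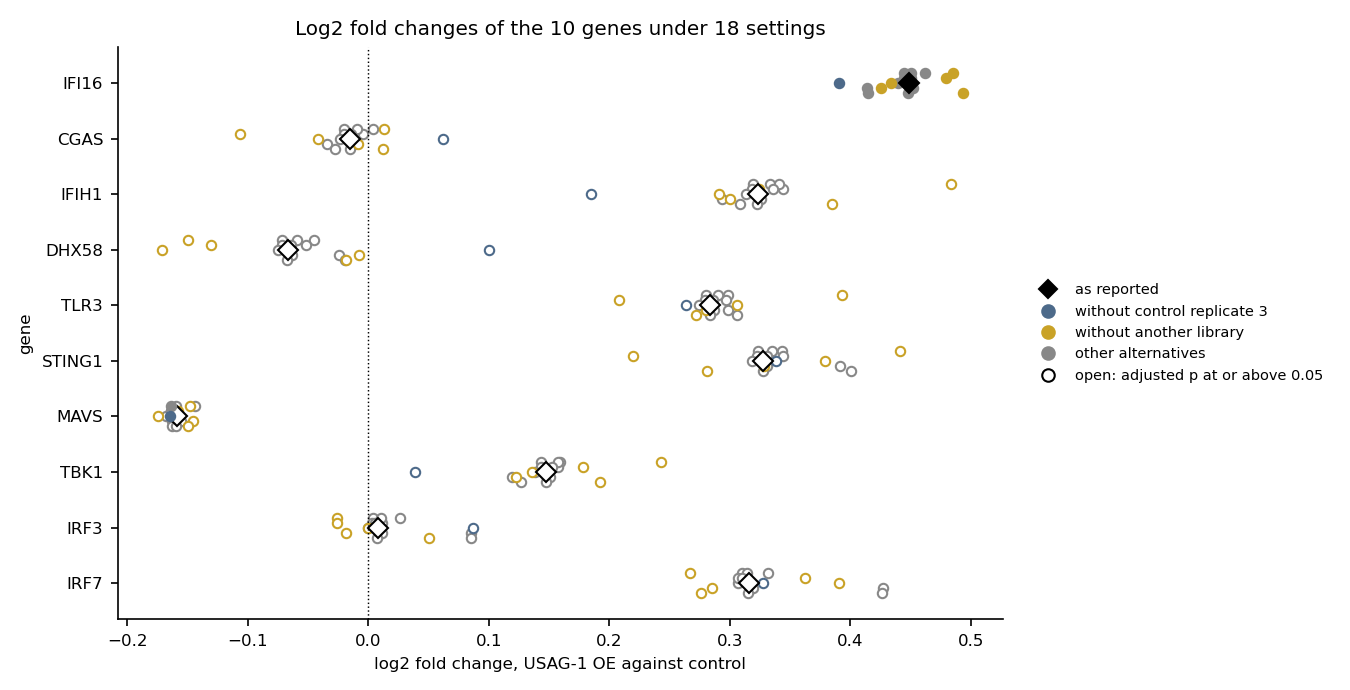
Log2 fold change of each of the 10 genes as reported (diamond) and under 17 other settings (circles, coloured by kind of setting), with open symbols where the adjusted p was at or above 0.05. IFI16 stays between 0.39 and 0.49 and filled, whereas CGAS, DHX58 and IRF3 lie on both sides of 0.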

How the data were processed

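Sequencing of 6 HK-2 libraries, 3 per group, followed strand-specific preparation of oligo(dT)-selected RNA per the labels, while the series' design text names removal of ribosomal RNA. The authors deposited whole-number read counts per gene, not normalised, with positions on hg38 per the submitters' processing notes, which also name cutadapt 1.9 and FastQC. The aligner, the counting tool and the annotation are not given in the sources used here.

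From these counts, low genes were removed with filterByExpr, TMM factors were computed and edgeR 4.0.16 (quasi-likelihood, no replicate block) was run in R 4.3.3, with Benjamini-Hochberg adjustment over 18188 genes. The code was tested on simulated data. Alternatives were DESeq2 1.42.0, limma-voom (limma 3.58.1), other scalings and filters, a replicate block, each library left out in turn and, added after the data were seen, an offset for genomic span. The floor of 3 counts covers counting error only, since reads are not independent molecules, whereas the 95% intervals come from edgeR's standard errors and include the spread between libraries.

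The 10 members and all lists were chosen with earlier results of these data known. Named in the text are the members, SOSTDC1, the 2 tested genes of each pathway list with the smallest p, the 3 genes most like IFI16 in profile (mean of at least 5 CPM) and the 2 highest genes of marker lists. Some results under this rule are not reported here. Any further gene was chosen after its values were seen, among them the markers named as absent. Sequences and transcript lengths were not used here, so levels were not compared between genes.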

Additional observations from a re-analysis of the deposited data

How the results depend on the processing

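Over 49 genes and 17 alternatives, 681 of 829 log2 fold changes kept their direction and their side of the threshold, 126 no longer passed it, 11 passed it anew and 11 changed sign. IFI16 was called higher in every alternative. The number of members called lower rose from 0 to 1 (MAVS) with DESeq2 and ran from 0 to 1 when a library was left out. Pathway genes called higher numbered 18, then 22 with DESeq2, 13 with no filter on low counts, and 8 to 31 with a library left out. Those called lower numbered 13, then 23 with DESeq2, 8 with no filter on low counts, and 5 to 20 with a library left out. Of all genes, DESeq2 called 20.7% and the fit with no filter 6.26%, against 15.9% as reported. Changes of sign were found for CGAS (0.0035 with library sizes alone, and -0.11 to 0.062 with a library left out), IRF3 (-0.00034 with at least 10 counts in every library, and -0.026 to 0.087 with a library left out), DHX58 (-0.17 to 0.10) and IFNL4 (-0.14 to 0.99). Over all genes 2884 were called, against 5091 without control replicate 3, 1917 and 1636 without control replicates 1 and 2, and 1306, 1137 and 1347 without USAG-1 replicates 1, 2 and 3. With a replicate block, 2381 genes were called, IFI16 stayed called (0.45), and 16 pathway genes rose and 11 fell. The counts showed no sign that the replicate numbers pair the libraries. Deviations of same-numbered libraries correlated by 0.07, -0.05 and 0.04, and those of differently numbered ones by -0.14 to 0.11. Whether the cultures were paired cannot be read from these values. The offset for genomic span, added after the data were seen, left 2697 calls. The cause of these changes was not tested. Depth limits the interferon ligands that are in the table, with at most 17 counts in a library.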
